A study of Mus musculus with 2 samples.

Results

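Pigmented myoepithelial cells, which carry smooth muscle and pigment transcripts in 1 cell, numbered 69 of 9331 kept cells from a pair of droplet single-cell RNA libraries. Library 1 held 42 of its 3865 cells (1.09%, exact Clopper-Pearson 95% interval 0.784% to 1.47%) and library 2 held 27 of its 5466 cells (0.494%, 0.326% to 0.718%). A cell was taken when it had at least 500 detected genes, at most 30% mitochondrial unique molecular identifiers (UMIs, each standing for 1 captured transcript), at least 2 UMIs of Myh11, at least 2 of Mylk and Smtn together and at least 5 of Pmel, Dct and Tyrp1 together. It could hold at most 1 UMI of Rgs5, a pericyte gene, at most 1 of Rpe65, a retinal pigment epithelium gene, and none of the melanocyte genes Kit and Sox10. Both libraries came from wild-type C57BL/6 mice aged 35 days, from tissue labelled as ciliary epithelium that was cut up and digested with collagenase. Library 1 pooled 3 sets of eyes, and library 2 pooled 3 or 4, as its labels differ. Each library is therefore 1 pool of animals, and n = 2 libraries for every value. The series compared no conditions, so the comparisons here set these cells against other cells of the same pools.

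Myoepithelial cells are epithelial cells that build a smooth muscle contractile apparatus. In the iris, the dilator muscle is formed by the anterior pigmented epithelium, whose cells grow contractile processes at their base, and the sphincter muscle also arises from the optic cup and not from mesenchyme. Dilator contraction is known to be driven by sympathetic nerves through alpha-1 adrenergic receptors, and sphincter contraction by parasympathetic nerves through muscarinic receptors. No label or file places these cells in the iris, so they are named here by their transcripts.

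The transcripts that chose the cells are a description and carry no test. Myh11, the heavy chain of smooth muscle myosin, had 2 to 47 UMIs in a chosen cell, with a median of 5. Mylk, the kinase that starts contraction by phosphorylating the myosin light chain, and Smtn, smoothelin, together had 2 to 33 UMIs. The melanosome genes Pmel, Dct and Tyrp1 together had 44 to 2016 UMIs with a median of 215, so no chosen cell was near the minimum of 5. Rgs5 was at 0 in all 69 cells. The Myh11 minimum is the one that cuts: 6 cells of library 1 and 10 of library 2 sat at 2 UMIs, and 13 and 16 further cells that met every other condition had 1. The proposed marker Hs3st1, a heparan sulfate sulfotransferase that the rule did not use, had at least 1 UMI in 28 of 42 and 18 of 27 chosen cells, against 5 of 51 and 2 of 135 pigmented epithelial cells and 1 of 330 and 21 of 1259 rods, taken as the level of free RNA (median UMIs 6436 and 10091 in chosen cells, 1168 and 2852 in rods). With each cell thinned to 3000 UMIs, leaving out 8 and 2 chosen cells and 15 and 55 pigmented epithelial cells that were shallower, Hs3st1 was seen in 44.1% and 36.0% of chosen cells, against 5.56% and 2.50% of pigmented epithelial cells. Thinned in the same way, it was seen in 0 of 39 and 4 of 606 rods, with 291 and 653 shallower rods left out. It was seen in 11 of 250 and 4 of 168 macrophages, and in 3 of 240 and 1 of 127 melanocytes. Of the 5 marker genes named for these cells, 4 were part of the rule, and Hs3st1, the other, was above its share in rods in both libraries. The markers were named with earlier results of these data known, so the Hs3st1 counts are a description too.

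The chosen cells were set against other gated cells of the same libraries. Pigmented epithelial cells had at least 5 pigment UMIs, at least 2 of the keratins Krt8 and Krt18, no Myh11 and at most 1 UMI of Mylk and Smtn together, and numbered 51 and 135. The limits on Rgs5, Rpe65, Kit and Sox10 held for them too, with at most 1 UMI of Rgr, a further retinal pigment epithelium gene. Unpigmented contractile cells met the same muscle conditions as the chosen cells but had at most 2 pigment UMIs, and numbered 35 and 13. The contractile pool joins Rgs5-positive cells (11 and 4) and Rgs5-low cells (24 and 9), a choice made after their numbers were seen, since neither reached 10 cells in library 2 alone. Median UMIs per cell were 6436 and 10091 in the chosen cells, against 4742 and 4061 in pigmented epithelial cells. The chosen cells were thus the deeper ones, as a rule on raw UMIs favours. Their median mitochondrial share was 13.6% and 15.3%, against 16.4% and 11.9% in pigmented epithelial cells, 7.27% and 9.15% in Rgs5-positive and 4.98% and 6.05% in Rgs5-low contractile cells. The libraries shared 11 barcodes, 8 of them among kept cells and 0 among the chosen cells.

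Clustering all kept cells without the genes of the rules or Hs3st1 put 38 of 42 and 23 of 27 chosen cells into 1 cluster, which also held 30 and 71 of the pigmented epithelial cells. That cluster had 129 and 210 cells in all, and over both libraries 163 of them were of no gate and 13 were melanocytes. On average 42.8% of a chosen cell's nearest neighbours were other chosen cells, 11.7% were pigmented epithelial cells, 37.7% cells of no gate, 3.38% fibroblasts and 2.13% melanocytes, and 27 of the 69 had no pigmented epithelial neighbour. Unpigmented contractile cells made up 0% (Rgs5-positive) and 0.097% (Rgs5-low) of those neighbours. The 8 chosen cells outside that cluster were deeper, with median UMIs of 23616.5 and 44521, against 5550 and 8290 inside it. The outside cells also held Dcn, a fibroblast proteoglycan, at 5521 and 1601 counts per 1000000 UMIs (CPM), against 235 and 84.3 CPM in the inside cells. Summed levels of 10 fibroblast markers were 156 and 49.6 CPM in the 61 cells of the cluster, with Pdgfra, Dpt, Clec3b and Col6a3 at 0, and 1014 and 1550 CPM in all 69. No doublet caller was run, and whether the 8 cells are doublets was not tested. The calls that change without these 8 cells are named beside their values.

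**Figure D1:**
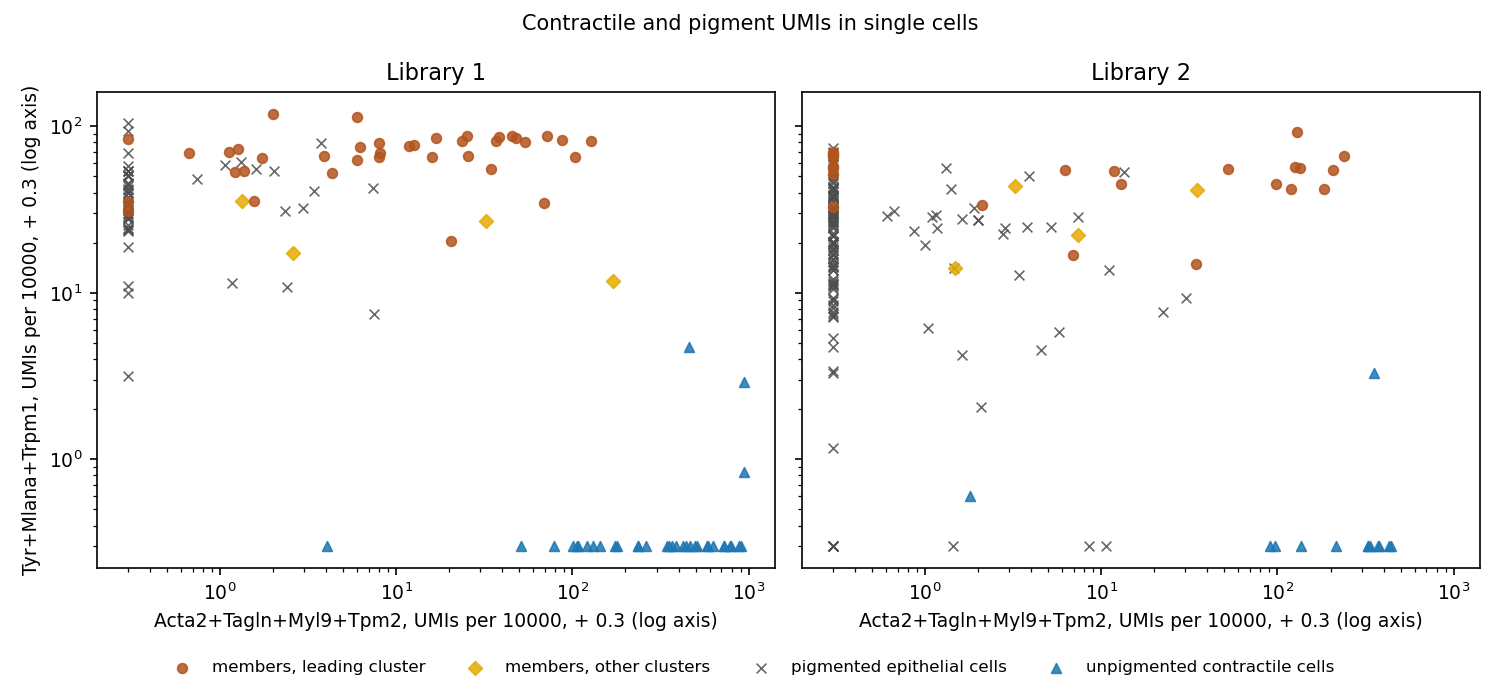
Each point is 1 cell, with the summed UMIs of Acta2, Tagln, Myl9 and Tpm2 per 10000 UMIs on the x axis and of Tyr, Mlana and Trpm1 on the y axis (log axes, 0.3 added), by library. Chosen cells of the leading cluster reach along the x axis at high pigment levels, with medians of 9.64 and 11.5 contractile and 71.4 and 54.2 pigment UMIs per 10000, while pigmented epithelial cells sit mostly at 0 on the x axis and unpigmented contractile cells mostly at 0 on the y axis.

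In single cells, contractile and pigment transcripts outside the rule occurred together. At least 2 UMIs of the contractile genes Acta2, Tagln, Myl9 and Tpm2 and at least 2 of the pigment genes Tyr, Mlana and Trpm1 were found in 28 of 38 and 15 of 23 chosen cells of the leading cluster. The same held for 1 of 51 and 7 of 135 pigmented epithelial cells, 0 of 35 and 1 of 13 unpigmented contractile cells, and 34 of 276 and 18 of 156 melanocytes. Chosen cells were gated to hold muscle and pigment UMIs, and the other groups to hold none or few UMIs of Myh11 or of the pigment genes. Chosen cells were also deeper than pigmented epithelial cells. The contrast is thus not independent of the choice and is a description. The chosen cells were uneven among themselves. In library 2, 15 of the 23 cells had contractile UMIs and the other 8 had none of the 4 genes, although all had at least 2 of Myh11. In library 1, 35 of 38 had at least 1. The plot of single cells shows this spread along the contractile axis at pigment levels that change less.

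Against pigmented epithelial cells, 4 contractile genes stood out in the chosen cells: Acta2, smooth muscle alpha-actin, Tagln, an actin-binding calponin relative, Myl9, the regulatory myosin light chain, and Tpm2, beta-tropomyosin. These 4 were called with all chosen cells, with the cells of the leading cluster alone and with both groups restricted to that cluster. Acta2 (chromosome 19, 34241090 to 34255590, GRCm38) was at 1246 and 1588 CPM in chosen cells, against 30.1 and 37.7 CPM in pigmented epithelial cells. Tagln (chromosome 9, 45929619 to 45936058) was at 1106 and 710 CPM, against 3.35 and 12.6 CPM. Myl9 (chromosome 2, 156775420 to 156781658) was at 632 and 451 CPM, against 13.4 and 10.0 CPM. As summed levels, the chosen cells were higher in both libraries for each of these genes. Single cells of the groups overlapped: Acta2 had at least 1 UMI in 32 of 42 and 18 of 27 chosen cells. The same held for 9 of 51 and 16 of 135 pigmented epithelial cells. Retinal pigment epithelial cells, gated on at least 5 pigment UMIs and at least 2 of Rpe65, had Acta2 in 32 of 91 and 31 of 81 cells. Tagln was found in 1 and 1 of them, and Myl9 and Tpm2 in 2 and 3 each. Thinned to 3000 UMIs, leaving out shallower cells, Acta2 was seen in 55.9% and 52.0% of chosen cells. It was seen in 22.1% and 25.5% of retinal pigment epithelial cells and 5.56% and 5.0% of pigmented epithelial cells. Tpm2 (chromosome 4, 43514711 to 43523765) had 74 and 85 UMIs in chosen cells, against 0 and 5 UMIs in pigmented epithelial cells.

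Tested across genes on summed UMIs (edgeR quasi-likelihood F test, library as block, Benjamini-Hochberg adjustment), Tagln rose by a log2 fold change of 6.47 ± 0.52 (SE, adjusted p = 9.38e-05), Myl9 by 5.56 ± 0.45 (adjusted p = 9.38e-05), Tpm2 by 5.51 ± 0.68 (adjusted p = 0.00504) and Acta2 by 5.43 ± 0.59 (adjusted p = 0.00186). Within the leading cluster the same test gave adjusted p-values of 0.0227 for Tagln and Acta2, 0.0144 for Myl9 and 0.0395 for Tpm2. Without the keratin condition on pigmented epithelial cells all 4 stayed called, at smaller log2 fold changes of 4.11 for Acta2, 3.45 for Tagln, 3.67 for Myl9 and 3.94 for Tpm2. Without the replicate block Tpm2 missed the threshold, at an adjusted p of 0.061. A few cells hold much of this RNA. In library 1, a single cell carried 73.3% of the Tagln and 45.8% of the Acta2 UMIs of the chosen cells, and without that gene's largest contributor the levels were 329 CPM for Tagln and 752 CPM for Acta2, above pigmented epithelial cells in both cases. That cell lies outside the leading cluster, where Acta2 had 836 and 2667 CPM and Tagln 290 and 1150 CPM. Because the cells were chosen on Myh11, Mylk and Smtn, genes that muscle cells use together with these, the tests of contractile genes are not independent of the choice in full.

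In all, 18 genes were called higher (adjusted p under 0.05 and a log2 fold change of at least 1), 0.161% of the 11164 tested, and 3 were called lower, 0.0269%; at an unadjusted p under 0.05 there were 844. With the leading cluster's chosen cells, 14 genes were called higher (0.125% of 11238) and 24 lower (0.214%), and 8 of the higher and all 3 of the lower genes were in both sets of calls. Of 38 tested genes of the contractile apparatus list, 5 rose and 0 fell, with a median log2 fold change of 1.10 against 0.04 over all genes. The 5th was Tgfb1i1, a focal adhesion protein (76.7 and 67.5 CPM, against 23.4 and 13.8 CPM), with an adjusted p of 0.0469 that was 0.149 in the leading cluster. Of the other contractile genes, Tpm1 had 375 and 413 CPM, against 147 and 134 CPM in pigmented epithelial cells, at an adjusted p of 0.228.

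The rest of the higher calls split by whether they held in the leading cluster. Rab3b, a small GTPase of vesicle release, had 41 and 34 UMIs in chosen cells (92.5 and 91.8 CPM), against 2 and 7 UMIs in pigmented epithelial cells (6.69 and 8.79 CPM), in 27 and 14 chosen cells, against 2 and 6 pigmented epithelial cells. It rose by 3.61 ± 0.59 on the log2 scale (adjusted p = 0.0376; 0.0136 in the leading cluster, 0.0800 with both groups restricted to it). The call needs both libraries: without the chosen cells of library 1 the adjusted p was 0.210, and without those of library 2 it was 0.279. Mpp6, a membrane scaffold of the MAGUK family, had 153 and 148 CPM in chosen cells, against 36.8 and 31.4 CPM, and Nupr1, a stress-induced chromatin protein, had 199 and 286 CPM, against 76.9 and 56.5 CPM. These 2 genes were picked out after their values were seen. Both rose, with adjusted p-values of 0.0397 and 0.0419, and of 0.0235 and 0.0366 with the leading cluster's chosen cells, but neither was called with both groups restricted to that cluster (0.114 and 0.119).

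Other calls rested on the 8 outside cells. Ccdc3, a secreted protein, had 47 and 22 UMIs in all chosen cells, against 0 and 0 in pigmented epithelial cells, and 0 and 0 UMIs in the 61 chosen cells of the leading cluster. Ecm1, an extracellular matrix protein, had 32 and 22 UMIs and then 1 and 0. Serpinf1, a secreted serpin, had 130 and 55 UMIs in all chosen cells and 9 and 4 in the cluster. Gpr137b, a lysosomal membrane protein, had 44 and 27 UMIs and then 5 and 3. In the unpigmented contractile cells these 4 genes had 8 to 248 UMIs a library. Further higher calls were Fgl2, Gm26532, Icam1, Nr4a2 and Txnip, of which Fgl2 was also called with the leading cluster's chosen cells.

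Lower in the chosen cells were Slc16a8, a lactate transporter of the retinal pigment epithelium (1 and 6 UMIs, against 50 and 129), Col8a1, a basement membrane collagen (8 and 20, against 94 and 222), and Serpine3, a serpin (0 and 0, against 30 and 104). All 3 fell, with adjusted p-values of 0.0216, 0.0253 and 0.025, and Serpine3 was at least 33.2-fold lower over both libraries, at a floor of 3 UMIs over the group. The Serpine3 UMIs of pigmented epithelial cells sat in 3 of 51 and 3 of 135 cells, and those in the leading cluster had 0 and 0. With both groups restricted to the leading cluster none of the 3 genes was called (adjusted p = 0.378 for Slc16a8 and 0.227 for Col8a1), and with comparator cells of matched depth Slc16a8 and Col8a1 missed the threshold too (0.0501 and 0.141). Without the chosen cells of library 1 the adjusted p-values were 0.139 for Slc16a8, 0.170 for Col8a1 and 0.119 for Serpine3, and without those of library 2 they were 0.0867, 0.0315 and 0.150. Summed levels of 9 retinal pigment epithelium markers moved with these genes: 1023 and 1952 CPM in chosen cells, against 6703 and 5087 CPM in pigmented epithelial cells, none at 0 in either. Their part in the result was not tested. With both groups restricted to the leading cluster, where these markers came to 1042 and 1016 CPM against 1986 and 2923 CPM, 5 genes were called higher (0.0468% of 10694) and 2 lower (0.0187%). The fifth higher gene was Sdc3, a cell surface proteoglycan (99.8 and 109 CPM in chosen cells, against 17.2 and 5.51 CPM), and the lower ones were Ttr, a retinol and thyroxine carrier, and Cst3, cystatin C.

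**Figure D2:**
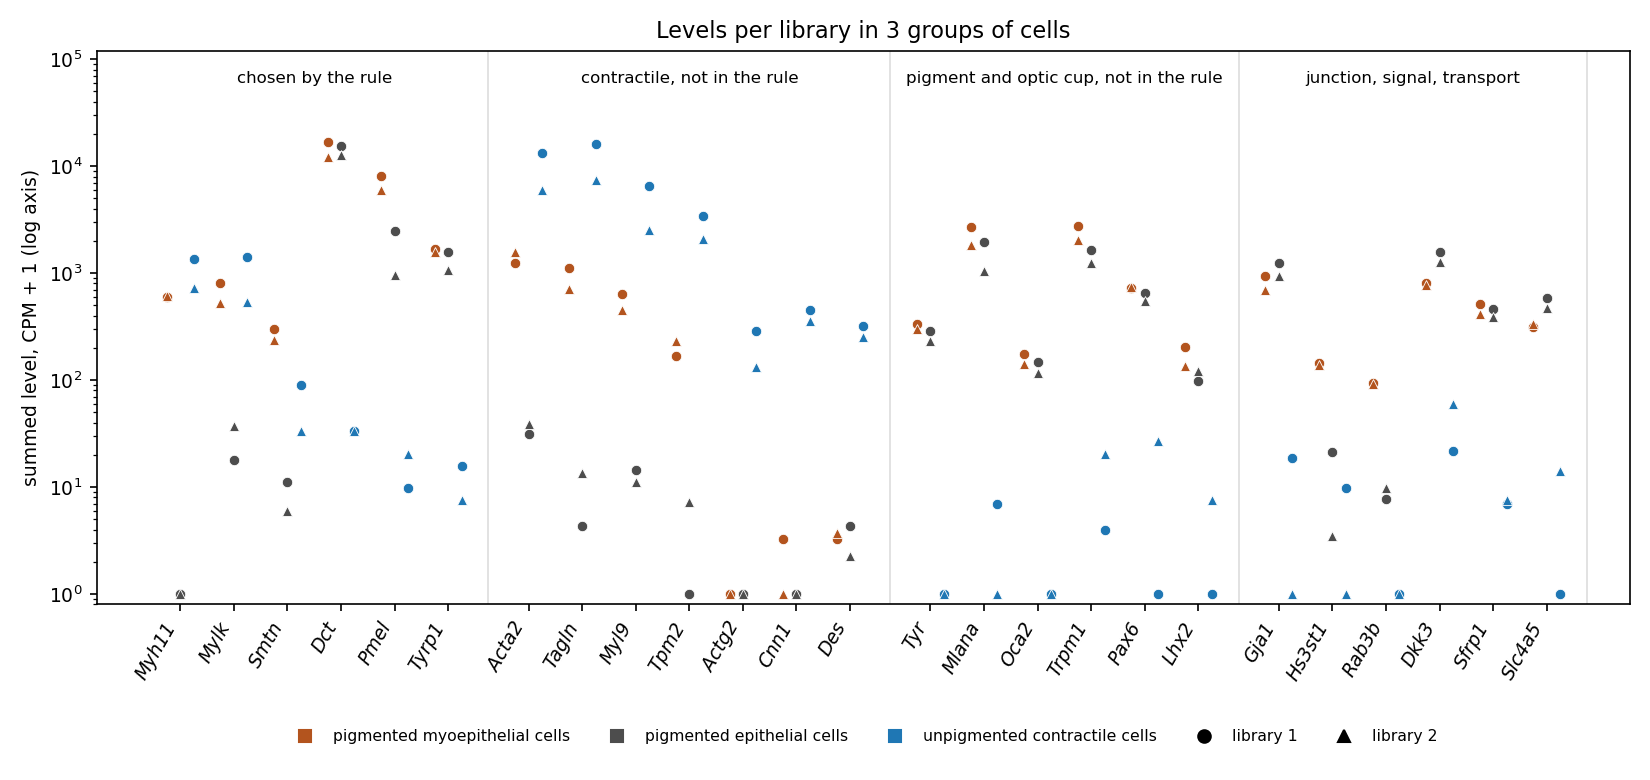
Summed level (CPM + 1, log axis) of 25 genes in chosen cells, pigmented epithelial cells and unpigmented contractile cells, with circles for library 1 and triangles for library 2. Acta2, Tagln, Myl9 and Tpm2 lie between the other groups, Actg2, Cnn1 and Des stay with pigmented epithelial cells, and the pigment and optic cup genes lie far above unpigmented contractile cells.

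Set against unpigmented contractile cells, the chosen cells had lower levels of most smooth muscle genes. Acta2 reached 1246 and 1588 CPM in chosen cells, against 13306 and 5976 CPM in unpigmented contractile cells, and Tagln reached 1106 and 710 CPM, against 16077 and 7483 CPM. Myl9 stood at 632 and 451 CPM, against 6481 and 2538 CPM, and Tpm2 at 167 and 229 CPM, against 3434 and 2062 CPM. In both libraries the chosen cells were below the unpigmented contractile cells for all 4 genes. In library 2, 1 cell held 66973 of the 153280 UMIs of the unpigmented contractile cells, so it weighs on every summed level there. The same cell was the lowest in these 4 genes in that library, with 1.49 of their UMIs per 10000, against a median of 327. It therefore lowers the summed library 2 levels of these genes in unpigmented contractile cells. Acta2 fell by 2.58 ± 0.50 on the log2 scale (SE, edgeR, adjusted p = 0.00823), Myl9 by 2.82 ± 0.35 (adjusted p = 0.000551), Tagln by 3.52 ± 0.41 (adjusted p = 0.000362) and Tpm2 by 3.58 ± 0.49 (adjusted p = 0.00111).

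Several smooth muscle transcripts were at or near 0 in the chosen cells. Actg2, enteric gamma-actin (chromosome 6, 83512905 to 83536265), had 0 and 0 UMIs in chosen cells, against 98 and 20 UMIs in unpigmented contractile cells, at least 64.8-fold lower over both libraries at a floor of 3 UMIs. Cnn1, calponin 1, which restrains the myosin ATPase, had 1 and 0 UMIs, against 154 and 55, and Des, the muscle intermediate filament desmin, had 1 and 1, against 109 and 39. Ppp1r14a, an inhibitor of myosin phosphatase, had 2 and 2 UMIs, against 111 and 23. All 4 fell in the edgeR test (adjusted p = 0.00173 for Actg2, 0.000127 for Cnn1, 8.27e-05 for Des and 0.00092 for Ppp1r14a), and Actg2 alone of them missed the threshold with DESeq2, at an adjusted p of 0.474. Myocd, myocardin, the coactivator that switches on smooth muscle genes, had 1 and 0 UMIs in chosen cells, against 21 and 0, too few to compare. Its partner Srf had 42.9 and 43.2 CPM in chosen cells, against 29.4 and 39.1 CPM, at an adjusted p of 0.648.

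Of the 38 tested contractile genes, 0 were called higher and 24 lower in the chosen cells, with a median log2 fold change of -2.07 against -0.03 over all genes. Over all 11164 genes, 430 were called higher (3.85%) and 206 lower (1.85%), and with the leading cluster alone 590 (5.25% of 11238) and 502 (4.47%). The genes of the rule behaved differently from one another. Myh11 had 591 and 613 CPM in chosen cells, against 1344 and 718 CPM in unpigmented contractile cells, and Mylk had 815 and 526 CPM, against 1409 and 535 CPM. The library 2 levels of unpigmented contractile cells include the deep cell named above. Smtn had 300 and 238 CPM in chosen cells, against 88.1 and 32.6 CPM. Smtn was thus higher in the chosen cells in both libraries while Acta2, Tagln, Myl9 and Tpm2 were lower, which is a description since Smtn was part of both rules.

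How much of the unpigmented contractile profile the chosen cells carry outside the rule depended on the 8 outside cells. Over 74 genes at least 4 log2 units higher in unpigmented contractile than in pigmented epithelial cells, the chosen cells had a median of 11.2% and 16.2% of the unpigmented contractile level. The 61 cells of the leading cluster had 1.37% and 3.91%, with 29 and 28 of the 74 genes at 0. Over 48 genes chosen in the same way from Rgs5-positive cells the medians were 7.72% and 8.47% for all chosen cells and 2.29% and 1.73% for the cluster. In the same cells and over both libraries, Acta2 was at 0.138, Myl9 at 0.0943, Tpm2 at 0.068 and Tagln at 0.0455 times the unpigmented contractile level. All 4 were lower in library 1 (836, 384, 114 and 290 CPM) than in library 2 (2667, 684, 357 and 1150 CPM). Pericyte and vascular muscle markers, 16 genes, came to 205 and 381 CPM in chosen cells, 201 and 357 CPM in pigmented epithelial cells and 1861 and 1566 CPM in unpigmented contractile cells, and Abcc9, Higd1b and Rgs4 were at 0 in the chosen cells. Markers of rods and other retinal cells, 8 genes, came to 3388 and 7868 CPM in chosen cells, against 156 and 14670 CPM in unpigmented contractile cells. The 8 include Trpm1, counted above as a pigment gene, at 2761 and 2022 CPM in chosen cells, and Glul, with 257 and 261 UMIs. In unpigmented contractile cells Trpm1 had 1 and 3 UMIs and Glul 38 and 61. The part of these markers in the comparison was not tested.

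Pigment genes outside the rule were far above unpigmented contractile cells, and most lay somewhat above pigmented epithelial cells without passing the test. Tyr, tyrosinase, the rate-limiting enzyme of melanin synthesis, had 332 and 302 CPM in chosen cells, 288 and 232 CPM in pigmented epithelial cells and 0 and 0 in unpigmented contractile cells. Mlana, a melanosome protein, had 2670 and 1828 CPM in chosen cells, 1970 and 1055 CPM in pigmented epithelial cells and 5.87 and 0 CPM in unpigmented contractile cells. Oca2, a melanosomal anion channel, had 176 and 140 CPM, 147 and 114 CPM, and 0 and 0 CPM in the same order. Against unpigmented contractile cells Tyr was at least 52.4-fold and Oca2 at least 26.3-fold higher over both libraries at a floor of 3 UMIs. Against pigmented epithelial cells 0 of 22 tested pigmentation genes were called in either direction (edgeR; 4 at an unadjusted p under 0.05, all higher), beside 0.161% and 0.0269% of all genes. Of the 22, 19 had a log2 fold change above 0, with a median of 0.70, and of 1.01 with the leading cluster's chosen cells, where 7 were higher at an unadjusted p under 0.05. Against unpigmented contractile cells 16 rose and 0 fell, with a median of 4.82. Those cells were gated to at most 2 UMIs of Pmel, Dct and Tyrp1, and chosen cells to at least 5. The contrast in pigment genes with unpigmented contractile cells is thus not independent of the choice. Of the pigment genes in the rule, Pmel, the fibril protein of melanosomes, had 8158 and 5940 CPM in chosen cells, against 2499 and 967 CPM in pigmented epithelial cells, and Dct had 16939 and 12150 CPM, against 15350 and 12681 CPM. The 10 melanocyte markers, which include Mlana, came to 2781 and 1955 CPM in chosen cells, 2107 and 1180 CPM in pigmented epithelial cells and 153 and 91.3 CPM in unpigmented contractile cells, and Tfap2a and Gjc3 alone were at 0 in the chosen cells.

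Promoter stretches of Myl9, Tyr and Dct are shown as examples of contractile and pigment genes of these cells in which a searched motif was found, with the motif in capitals, from RefSeq on GRCm38.p6, 5′ to 3′ and ending before the annotated gene start. The CArG box is the element bound by serum response factor at smooth muscle genes, and the M-box TCATGTG, which the opposite strand reads as CACATGA, is the element bound by MITF at pigment genes. Both strands were searched, and the motifs do not overlap each other in the stretches shown. The CArG box was searched only in the exact form CCWWWWWWGG, where W is A or T. Near matches with another base were not searched for and are not marked. The stretches are chr2:156775214-156775419 (plus strand) for Myl9, chr7:87493513-87493762 (minus strand) for Tyr and chr14:118052247-118052496 (minus strand) for Dct.
Myl9: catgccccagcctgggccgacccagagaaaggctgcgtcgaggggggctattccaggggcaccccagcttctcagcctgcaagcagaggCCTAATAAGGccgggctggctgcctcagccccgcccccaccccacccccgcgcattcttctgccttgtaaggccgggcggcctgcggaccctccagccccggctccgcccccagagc
Tyr: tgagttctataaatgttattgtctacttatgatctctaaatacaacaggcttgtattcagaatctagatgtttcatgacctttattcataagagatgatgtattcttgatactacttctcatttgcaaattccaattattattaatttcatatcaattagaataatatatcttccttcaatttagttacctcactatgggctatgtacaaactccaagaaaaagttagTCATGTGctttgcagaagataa
Dct: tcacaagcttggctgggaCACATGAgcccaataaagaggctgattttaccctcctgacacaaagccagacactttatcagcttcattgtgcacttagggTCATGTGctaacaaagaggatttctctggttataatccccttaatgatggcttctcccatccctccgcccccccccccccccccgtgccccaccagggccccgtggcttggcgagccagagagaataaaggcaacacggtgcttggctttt
Of 7 contractile genes (Myh11, Acta2, Tagln, Myl9, Tpm2, Mylk and Smtn), 5 were in the promoter table. Of these, 1 had a CArG box of the exact form within 250 bases before a start and 0 had an M-box. A gene without such a match can still hold a near match. Of 7 pigment genes (Pmel, Dct, Tyrp1, Tyr, Oca2, Trpm1 and Mlana), 5 were in the table, 4 had an M-box and 0 had a CArG box. Among all 32851 promoters of that length, 1.47% held a CArG box and 3.25% an M-box. The M-box of Tyr begins 22 bases before the RefSeq start, and those of Dct 232 and 151 bases before it. The CArG box of Myl9 begins 161 bases before the RefSeq start and 117 bases before the end of the stretch shown, which leaves out 44 bases inside the annotated gene. A match is a description of these letters.

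Transcription factors of the optic cup, the neuroepithelium from which the iris and ciliary epithelia and the iris muscles arise, were present in the chosen cells. Pax6, the master factor of eye formation (chromosome 2, 105668900 to 105697364), had 725 and 740 CPM in chosen cells, 652 and 545 CPM in pigmented epithelial cells and 0 and 26.1 CPM in unpigmented contractile cells. Lhx2, a LIM homeodomain factor of the optic vesicle, had 201 and 135 CPM, 97.0 and 122 CPM, and 0 and 6.52 CPM in the same order. Of 29 tested optic cup genes, 0 were called against pigmented epithelial cells (edgeR; 4 at an unadjusted p under 0.05), where so few genes were called (0.161% higher and 0.0269% lower) that this count says little. Against unpigmented contractile cells 6 rose and 1 fell (5 and 2 in the leading cluster), beside 3.85% and 1.85% of all genes. Pax6 rose there by 6.54 ± 0.91 on the log2 scale (edgeR, adjusted p = 0.00113) and Lhx2 by 6.40 ± 1.03 (adjusted p = 0.00292). The keratins of simple epithelia were lower than in pigmented epithelial cells, which were chosen on them: Krt18 had 307 and 532 CPM, against 933 and 829 CPM.

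Several junction and transport genes were above unpigmented contractile cells. Gja1, connexin 43, a gap junction channel, had 944 and 697 CPM in chosen cells, 1241 and 936 CPM in pigmented epithelial cells and 17.6 and 0 CPM in unpigmented contractile cells, and rose by 6.22 ± 0.67 against the last (edgeR, adjusted p = 0.000233). Of 22 tested epithelial adhesion genes, 3 rose (the nectins Pvrl1 and Pvrl3 and the claudin Cldn1) and 1 fell (the junctional adhesion molecule Jam3, at 31.6 and 35.1 CPM, against 211 and 157 CPM) relative to unpigmented contractile cells, beside 3.85% and 1.85% of all genes, and 0 were called against pigmented epithelial cells (edgeR; 2 at an unadjusted p under 0.05, both lower). In the leading cluster the counts against unpigmented contractile cells were 2 and 2 of 23. Slc4a5, a sodium bicarbonate cotransporter, had 312 and 335 CPM, 582 and 472 CPM, and 0 and 13.0 CPM. Atp1b1, the beta subunit of the sodium pump, had 427 and 302 CPM, 763 and 525 CPM, and 8.81 and 19.6 CPM. For all 3 genes the chosen cells lay below pigmented epithelial cells in both libraries, but none was called there. Of 33 tested ciliary transport genes, 12 rose and 1 fell against unpigmented contractile cells, and 0 rose and 1 fell against pigmented epithelial cells, where 10 of the 33 lay above 0 and the median log2 fold change was -0.34. In the leading cluster the counts were 10 and 3, and 1 and 2. Over all genes the called shares were 3.85% and 1.85% in the first comparison and 0.161% and 0.0269% in the second. The gene that fell against unpigmented contractile cells was Aqp1, a water channel (22.6 and 29.7 CPM, against 197 and 183 CPM, adjusted p = 0.0174).

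Among secreted factors, Sfrp1, a Wnt antagonist, had 512 and 416 CPM in chosen cells, 458 and 391 CPM in pigmented epithelial cells and 5.87 and 6.52 CPM in unpigmented contractile cells. Dkk3, a dickkopf family protein, had 815 and 772 CPM, 1586 and 1275 CPM, and 20.5 and 58.7 CPM. Bmp2, a bone morphogenetic protein, had 94.8 and 122 CPM, 104 and 136 CPM, and 17.6 and 13.0 CPM. Against unpigmented contractile cells, all 3 rose (edgeR, adjusted p = 0.000155, 0.00113 and 0.0143), as 5 of 43 genes of the secretion list did, while 4 fell (8 and 9 in the leading cluster). Of 37 basement membrane and integrin genes, 5 rose and 2 fell (5 and 5 of 38 in the leading cluster). The shares over all genes were 3.85% and 1.85%, and 5.25% and 4.47% in the leading cluster. Lamb1, a laminin beta chain, had 129 and 122 CPM in chosen cells, against 8.81 and 0 CPM (adjusted p = 0.0018), and Itgb1, the common beta integrin, had 140 and 132 CPM, against 587 and 254 CPM (adjusted p = 0.0205, but 0.0625 with the leading cluster alone, 0.256 without the chosen cells of library 1 and 0.0675 without those of library 2). Of 22 genes of energy metabolism, 4 rose and 0 fell, and 9 rose and 0 fell in the leading cluster. Cox7a1, the muscle form of a cytochrome c oxidase subunit, had 51.9 and 56.7 CPM in chosen cells, against 2.94 and 13.0 CPM (adjusted p = 0.0077, but 0.0598 without the chosen cells of library 1), and 50.2 and 61.5 CPM in pigmented epithelial cells.

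**Figure D3:**
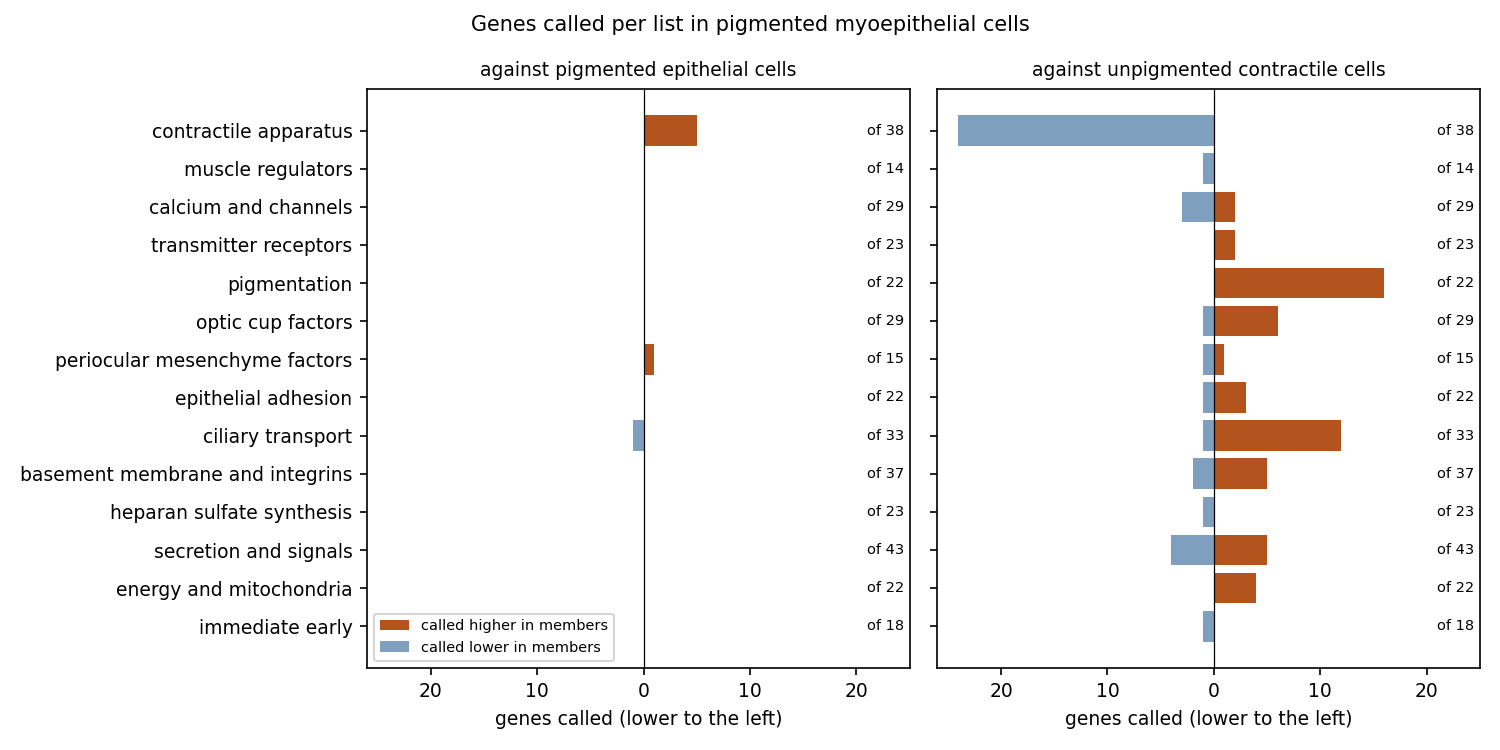
Bars give the genes called higher (right) and lower (left) in chosen cells for 14 gene lists, against pigmented epithelial cells and against unpigmented contractile cells, with the number tested at the right edge. Contractile genes are the longest bar in both panels, with 5 higher of 38 on one side and 24 lower of 38 on the other, beside 16 higher of 22 pigmentation genes.

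Receptors of the iris muscles were found at low counts. Chrm2, a muscarinic acetylcholine receptor (chromosome 6, 36388084 to 36528414), had 11 and 17 UMIs in 9 and 7 chosen cells, against 0 and 1 UMIs in pigmented epithelial cells and 1 and 0 in unpigmented contractile cells. In CPM this was 24.8 and 45.9 in chosen cells, against 0 and 1.26 in pigmented epithelial cells. The summed level was higher in chosen cells in both libraries, but the adjusted p was 0.116 (edgeR) against pigmented epithelial cells. It was 0.0566 for the leading cluster, and 0.0445 with DESeq2. Against unpigmented contractile cells it was 0.0699, and 0.028 for the leading cluster. Chrm3, the muscarinic receptor best known from the sphincter, had 0 and 0 UMIs in chosen cells, against 0 and 1 in pigmented epithelial cells and 5 and 0 in unpigmented contractile cells.

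Of the alpha-1 adrenergic receptors, Adra1a had 7 and 4 UMIs in 6 and 4 chosen cells, against 0 and 4 UMIs in pigmented epithelial cells and 0 and 0 in unpigmented contractile cells, and did not pass the count filter. Thinned to 3000 UMIs it was seen in 2 of 34 and 0 of 25 chosen cells, against 0 of 36 and 2 of 80 pigmented epithelial cells, so a difference was not detectable at this depth. Adra1b had 7 and 3 UMIs in chosen cells, against 0 and 0 in pigmented epithelial cells and 2 and 1 in unpigmented contractile cells (adjusted p = 0.341 against pigmented epithelial cells). Adra1d was at 0 in all 3 groups. Ednra, an endothelin receptor, had 7 and 1 UMIs, against 16 and 6 in unpigmented contractile cells (adjusted p = 0.0557). Opn4, melanopsin, which some mammalian irides use for a light response of their own, had 9 and 4 UMIs in chosen cells, against 6 and 6 in pigmented epithelial cells and 0 and 0 in unpigmented contractile cells.

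**Figure D4:**
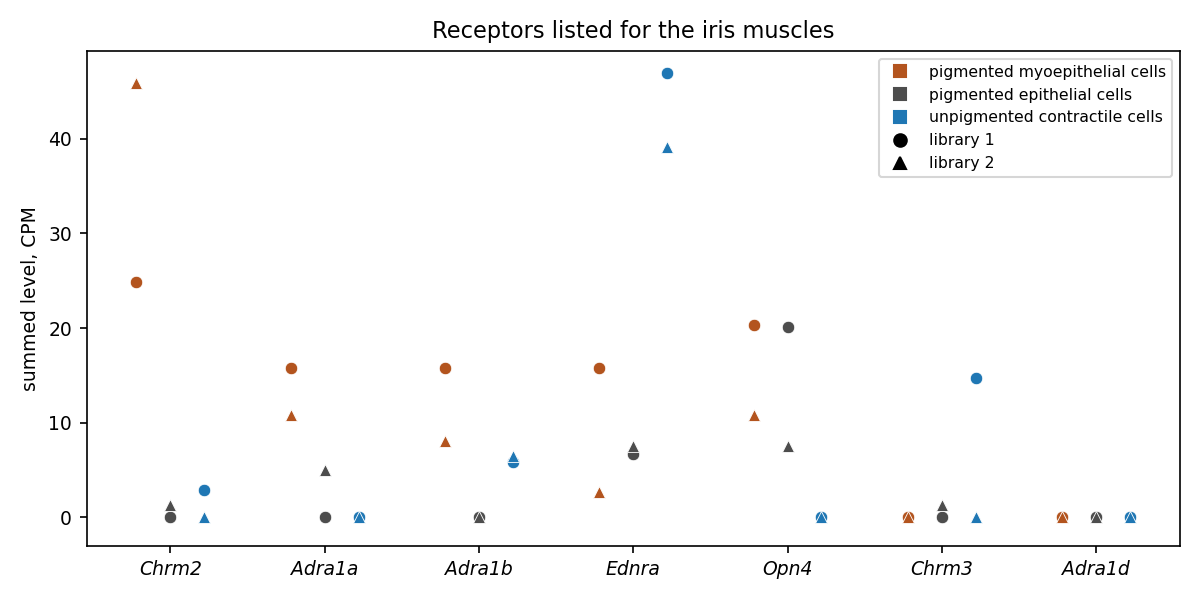
Summed level (CPM) of 7 receptors in chosen cells, pigmented epithelial cells and unpigmented contractile cells, by library. Chrm2 lies at 24.8 and 45.9 CPM in chosen cells and at most at 2.94 CPM in the other groups, while Chrm3 and Adra1d are at 0 in chosen cells.

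Of 23 tested transmitter and peptide receptors, 2 rose and 0 fell against unpigmented contractile cells (4 and 0 of 24 in the leading cluster, beside 3.85% and 5.25% of all genes called higher), and 0 were called against pigmented epithelial cells (edgeR; 5 at an unadjusted p under 0.05). Tacr1, the substance P receptor, had 76.7 and 72.9 CPM in chosen cells, 110 and 82.9 CPM in pigmented epithelial cells and 2.94 and 0 CPM in unpigmented contractile cells (adjusted p = 0.00537 against the last). Npr3, the natriuretic peptide clearance receptor, had 79.0 and 59.4 CPM, 130 and 97.9 CPM, and 2.94 and 6.52 CPM (adjusted p = 0.0105). Without the chosen cells of library 1 the adjusted p for Npr3 was 0.0738. Plcb4, a phospholipase that couples Gq receptors to calcium release, had 246 and 224 CPM in chosen cells, 70.2 and 79.1 CPM in pigmented epithelial cells and 49.9 and 52.2 CPM in unpigmented contractile cells. It rose against unpigmented contractile cells (adjusted p = 0.0259, but 0.207 without the chosen cells of library 1), and was at an adjusted p of 0.261 against pigmented epithelial cells.

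The listed immediate early genes, which cells switch on within minutes of a stimulus, lay above pigmented epithelial cells without passing the test. Nr4a2, an immediate early gene called higher above, is not on this list. Fos had 842 and 1382 CPM in chosen cells, against 258 and 883 CPM in pigmented epithelial cells (adjusted p = 0.270), and Junb had 722 and 1320 CPM, against 217 and 790 CPM (adjusted p = 0.175). Of 18 tested genes, 0 were called by edgeR, beside 0.161% of all genes called higher. At an unadjusted p under 0.05, 13 of the 18 were higher, beside 555 of all 11164 genes. All 18 had a log2 fold change above 0, with a median of 1.30 against 0.04 over all genes. In unpigmented contractile cells Fos was higher still, at 1612 and 2368 CPM. The summed level of 10 macrophage and leukocyte markers was 156 and 1323 CPM in all chosen cells and 14.7 and 178 CPM in those of the leading cluster, against 46.8 and 152 CPM in pigmented epithelial cells, with Cd3e at 0 in the chosen cells.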

How the data were processed

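Gene counts (whole UMIs) were the only unit used. The authors deposited 1 count matrix for each of the 2 libraries, with 4764 and 6220 barcodes and 33456 genes. These came from Cell Ranger 3.1.0, per the file headers, on mm10 (GRCm38), per the submitters' processing notes. Library totals were 22510387 and 30683405 UMIs. Cells under 500 genes or over 30% mitochondrial UMIs were dropped, and the others were gated on raw UMIs. 11 cells that met more than 1 gate were left out.

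UMIs were summed per group and library and tested with edgeR 4.0.16 (quasi-likelihood, TMM, filterByExpr, library as block) over 8 groups at once, leaving out 21 rule and marker genes. DESeq2 1.42.0 was an alternative. A library number marks 1 pool of eyes shared by all groups, so the groups are paired by library. The block takes out the shared difference between the n = 2 pools, so p-values measure how group differences vary between these pools only. That spread was estimated over all 8 groups, with 7 residual degrees of freedom. Intervals and floors cover counting error only. The planned comparisons with Rgs5-positive and Rgs5-low contractile cells were joined into 1, since each had under 10 cells in library 2.

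Clusters came from scanpy 1.11.5 (2000 variable genes, 30 components, 15 neighbours, Leiden resolution 1). Named genes were those of largest change among calls whose sign matched between the libraries, with a minimum of 20 UMIs per library on the higher side, and up to 4 per list and direction; others were named after their values were seen. The members and the 26 gene lists were chosen with earlier results of these data known. On data simulated for the comparison with pigmented epithelial cells (11375 genes), 69 of 100 genes changed 4-fold and 87 of 100 changed 8-fold were recovered. For unpigmented contractile cells (11284 genes) it was 61 and 91 of 100. Genes left unchanged made up 6 of the 162 calls against pigmented epithelial cells and 13 of the 165 against unpigmented contractile cells. These values describe the simulated data only. How many real changes of these sizes would be recovered was not tested. 1 gene called higher against pigmented epithelial cells is not reported here.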

Additional observations from a re-analysis of the deposited data

How the results depend on the processing

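Against pigmented epithelial cells, 18 genes were called higher and 3 lower. DESeq2 gave 38 and 13, no filter on low counts 156 and 77, and a fit of only the groups compared 157 and 106. Without the keratin condition on pigmented epithelial cells the counts were 9 and 7, without chosen cells of more than 1 Dcn UMI 8 and 8, and with both groups restricted to the leading cluster 5 and 2. Lower calls alone moved to 13 with at least 4 Myh11 UMIs, 13 with Rgs5 and Rpe65 both at 0, 0 with comparator cells of matched depth, 27 with chosen cells of at most the 95th percentile of pigmented epithelial UMIs, and 24 with the leading cluster's chosen cells. Leaving out the chosen cells of 1 library gave 8 to 9 higher and 0 to 1 lower. Without the replicate block, which pairs groups by library, 4 were higher and 0 lower, and the adjusted p of Tpm2 was 0.061. Against unpigmented contractile cells, 430 were higher and 206 lower. No filter gave 695 and 474. Rgs5-positive cells alone gave 280 higher and Rgs5-low cells alone 135 lower. Lower calls moved to 367 with only the groups compared, 111 without the replicate block, 124 at a mitochondrial share of at most 15%, 446 under the UMI limit, 460 under the Dcn limit and 502 in the leading cluster. Leaving out 1 library's chosen cells gave 189 to 284 higher and 45 to 96 lower.

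The sign turned for Ecm1 (-0.87 under the UMI limit, -0.29 under the Dcn limit, -1.47 in the cluster), Serpinf1 (-0.64, -0.87 and -0.36 under the same settings) and, against unpigmented contractile cells, Col18a1 (-2.85 under the UMI limit, -0.41 in the cluster). The cause was not tested. At a mitochondrial share of at most 15% the chosen cells were 0.702% and 0.266% of their libraries, and with a Myh11 minimum of 1 they were 0.787% of library 2. The median share of the unpigmented contractile level was 23.2% in library 2 over genes at least 3 log2 units higher, and 1.37% and 3.91% in the leading cluster. For Rgs5-positive cells it was 13.0% and 11.8%, and 2.29% and 1.73%. For Rgs5-low cells it was 25.2% in library 2, and 1.08% and 4.51%.

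Of 185 values for 12 named genes against pigmented epithelial cells, 133 kept their call, 46 lost it and 6 changed sign. Of 720 values for 48 genes against unpigmented contractile cells, 628 kept it, 90 lost it and 2 changed sign. A further 7 values had at most 3 UMIs or no estimate. The depth-matched fit was not run for unpigmented contractile cells, which left too few cells in library 2. The Dcn, cluster and single-population settings and the pooled comparator were chosen after seeing the data.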
